A study of Mus musculus with 4 samples.

Results

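The genes described here are 10 genes of glucocorticoid hormone action: the receptor gene Nr3c1, the hormone-converting enzyme genes Hsd11b1 and Hsd11b2, and the response genes Fkbp5, Tsc22d3, Zbtb16, Klf9, Sgk1, Dusp1 and Cdkn1a. They were found by gene symbol among the 55401 genes of the count files, and all 10 passed the filter on low counts in both tissues. RNA was sequenced from kidney and heart of C57BL/6 mice, with 1 library per tissue for the CLP group and 1 for CLP + MLT. CLP, cecal ligation puncture, is a surgical model of sepsis in which gut contents reach the abdominal cavity, and it was carried out in the mice of every group. According to the methods, the kidneys came from male mice aged 8 weeks, 24 h after CLP, and the CLP + MLT mice had drunk water with melatonin (MLT, 25 μg/ml) over the 14 days before surgery. For the hearts no source used here gives an age, dose or time, and none says whether a library came from 1 mouse or several, or whether kidney and heart came from the same mice. A treatment label of the CLP + MLT kidney and the names of both CLP + MLT libraries end in a number that is not explained.

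No group had a replicate, so the spread between mice is unknown for every difference below. Each comparison is between 2 libraries and not between the conditions. None of the 4 libraries came from sham mice, so no value can be set against mice without CLP. Between 15883057 and 22927905 reads were counted on genes per library. Reads placed at more than 1 site were left out of the counts, 23.6% for CLP and 32.6% for CLP + MLT in kidney and 38.6% and 37.0% in heart. The mitochondrial genome held 14.8% and 24.2% of the counted reads in kidney and 31.6% and 36.0% in heart, in the same order. The tissues carried their markers: 12 kidney tubule markers summed to 8094 and 9206 CPM (counts scaled to 1000000 per library, with TMM factors) in the kidney libraries and to 132 and 241 CPM in the heart libraries, in the order CLP and CLP + MLT. Cardiomyocyte markers, 6 genes, summed to 25161 and 17338 CPM in heart and to 7.87 and 12.9 CPM in kidney.

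Glucocorticoids, in mice mainly corticosterone, are steroid hormones of the adrenal gland that rise in infection and other stress. They bind the glucocorticoid receptor, which waits in the cytoplasm in a complex with heat shock protein 90 and its partner proteins, moves to the nucleus once bound and switches on genes that carry its binding motif. The response limits inflammation, raises glucose output and, in kidney, overlaps with salt retention, since the related mineralocorticoid receptor binds the same hormone. Enzymes in the target cell restore or inactivate the hormone before it reaches either receptor.

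Sequences before transcript starts were taken from RefSeq (GRCm38.p6, the build named mm10), in windows of 250 bases before to 50 bases after a start. Of the 10 genes, 7 had such windows, 15 in all; Nr3c1, Hsd11b2 and Zbtb16 had none. Searched on both strands, the full palindromic glucocorticoid response element, AGAACA and TGTTCT with any 3 bases between them, was found before a start of Sgk1 and in 3 of all 32851 windows (0.00913%). The looser form, GNACA and TGTNC with any 3 bases between them, overlaps it at that Sgk1 site, was found at no other of these genes and occurred in 0.475% of all windows. The pair CATG and CATG with any 6 bases between them, core letters of p53 sites, was found before a start of Cdkn1a. It occurred in 0.712% of windows. The cAMP response element TGACGTCA was found before a start of Dusp1 and in 1.79% of windows. The stretches below are shown because they hold these motifs, with the fixed letters of each motif in capitals and each gene's own strand read 5′ to 3′.
Sgk1: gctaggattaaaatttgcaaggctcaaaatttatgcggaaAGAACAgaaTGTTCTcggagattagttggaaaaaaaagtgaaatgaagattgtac
Cdkn1a: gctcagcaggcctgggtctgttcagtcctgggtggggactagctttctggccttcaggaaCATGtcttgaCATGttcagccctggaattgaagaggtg
Dusp1: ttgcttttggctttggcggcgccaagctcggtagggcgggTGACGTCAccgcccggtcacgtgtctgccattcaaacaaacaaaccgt

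The Sgk1 stretch lies at chr10:21993661-21993755 on the plus strand, with 174 bases between the motif and that start, and within an intron of longer Sgk1 transcripts. The Cdkn1a stretch lies at chr17:29090871-29090968 on the plus strand, with 34 bases between the motif and the start of that transcript. The Dusp1 stretch lies at chr17:26508568-26508655 on the minus strand, with 135 bases between the motif and the start of that transcript. This stretch also lies inside the annotated span of its gene. None of the stretches overlaps an annotated exon of GENCODE M21. A match is a run of letters and not a measured binding site. Outside these windows, introns and distant enhancers were not searched.

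In kidney, 5 of the 10 genes were past the thresholds and all 5 were lower in the CLP + MLT library: Zbtb16, Cdkn1a, Klf9, Fkbp5 and Sgk1. A gene counted as past the thresholds when its fold reached 1.5 and an exact binomial test on its reads gave 0.01 or less. Of all 16932 genes tested in kidney, 7.58% were lower and 7.8% higher past the same thresholds. In heart, Cdkn1a, Fkbp5 and Zbtb16 were lower and Hsd11b2 was higher, while 8.78% of the 15871 genes tested were lower and 7.15% higher. The 10 genes were chosen with earlier results of these data known, so setting them beside these shares is not a test. The median log2 ratio of CLP + MLT over CLP for the 10 genes was −0.55 in kidney and −0.17 in heart, against 0.0029 and 0.0023 for all genes tested. The calls rest on counting error: edgeR's exact test with the coefficient of variation between mice taken as 0.4 passed 0 of the 10 genes in either tissue. Scaled by library size only, all kidney genes shifted to a median of −0.19, and 23.5% of kidney calls were higher in place of 50.7%. That shift also turns the kidney medians of the p53 and sodium transport lists below from above 0 to under it.

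**Figure D1:**
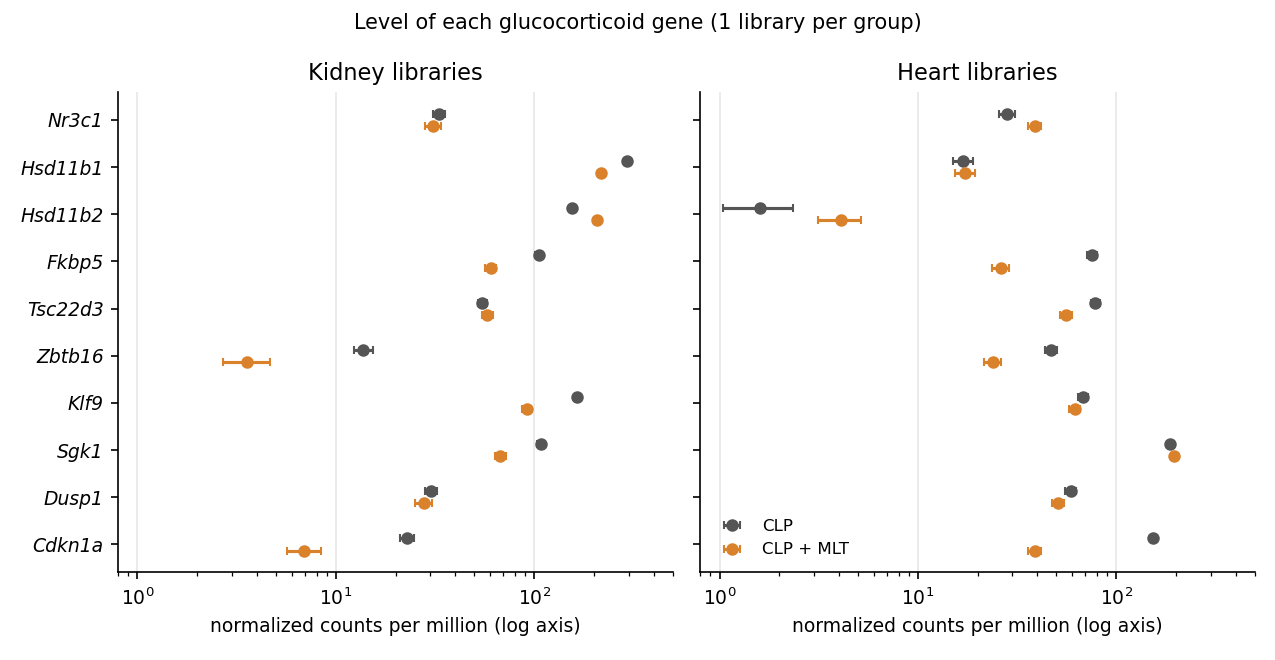
Normalized CPM (log axis) of the 10 genes in the CLP and CLP + MLT libraries of kidney (left) and heart (right), 1 library per group, with 95% exact Poisson intervals that cover counting error only. Fkbp5, Zbtb16 and Cdkn1a sit lower in the CLP + MLT library in both tissues, and Hsd11b2 in heart sits near the bottom of the scale at 1.59 and 4.08 CPM.

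The receptor gene Nr3c1 (ENSMUSG00000024431.15, chromosome 18 from 39410545 to 39519421, minus strand) was at 33.2 CPM in the CLP kidney and 31.0 CPM in the CLP + MLT kidney, from 814 and 478 counts. The kidney log2 ratio was −0.10 with a 95% exact Clopper-Pearson interval of −0.26 to 0.07, so no difference was detectable at this depth. In heart it was at 28.2 CPM for CLP and 38.8 CPM for CLP + MLT, from 460 and 629 counts. The heart log2 ratio of 0.46 (0.29 to 0.64) was above 0 but under the fold threshold. The receptor transcript was thus between 28.2 and 38.8 CPM in all 4 libraries and past the thresholds in neither tissue.

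Nr3c2, which encodes the mineralocorticoid receptor, had 264 counts in each kidney library, a log2 ratio of 0.67 (0.42 to 0.92) after scaling for the smaller CLP + MLT library. It was higher past the thresholds in kidney, a call that ends with scaling by library size only (0.48). In heart its log2 ratio was 0.41 (0.15 to 0.67). Because 1 library's scaling cancels in a ratio between 2 of its genes, the receptors were also compared within each library. Per kilobase of exon, Nr3c1 stood at 2.60 times Nr3c2 in the CLP kidney and at 1.53 times in the CLP + MLT kidney, a log2 change of −0.77 (−1.07 to −0.46). In heart the same ratio was 1.75 and 1.81, a log2 change of 0.05 (−0.26 to 0.36). The balance between the receptor transcripts thus moved toward the mineralocorticoid receptor in the kidney libraries, and no movement was detectable in heart. Nr3c2 shares 247 exon bases with the opposite-strand gene Gm10649, which had at most 6 counts in any library.

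Hsd11b1 encodes the enzyme that restores active corticosterone from its inactive keto form inside cells. In kidney, Hsd11b1 (ENSMUSG00000016194.14, chromosome 1 from 193221634 to 193264075, minus strand) was at 294 CPM for CLP and 218 CPM for CLP + MLT. The log2 ratio was −0.43 (−0.49 to −0.37), 1.35-fold lower and short of the threshold. With scaling by library size only it was −0.63 and past it, under the shift of all genes given above. In heart the gene was at 16.9 and 17.4 CPM, from 276 and 281 counts, and the log2 ratio was 0.04 (−0.21 to 0.28).

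Hsd11b2 encodes the opposite enzyme, which inactivates corticosterone and so keeps the mineralocorticoid receptor of the distal nephron free for aldosterone. In kidney, Hsd11b2 (ENSMUSG00000031891.6, chromosome 8 from 105518755 to 105523988, plus strand) was at 156 CPM for CLP and 207 CPM for CLP + MLT, a log2 ratio of 0.41 (0.34 to 0.48) that did not reach the fold threshold. The kidney intervals of the pair lie on opposite sides of 0. Within a library, Hsd11b1 per kilobase was 0.817 times Hsd11b2 in the CLP kidney and 0.456 times in the CLP + MLT kidney, a log2 change of −0.84 (−0.93 to −0.75). This ratio does not depend on scaling. It combines the opposite shifts of both genes, so the 1.5-fold used for single genes does not apply to it. H6pd, which encodes the enzyme that supplies Hsd11b1's protein with its cofactor, fell in kidney with 5481 counts for CLP and 1713 for CLP + MLT, giving −1.01 (−1.09 to −0.93) on the log2 scale. In heart H6pd had 316 and 271 counts and a log2 ratio of −0.21 (−0.45 to 0.03). In bulk tissue, fewer cells that express a gene and less RNA per cell cannot be told apart.

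**Figure D2:**
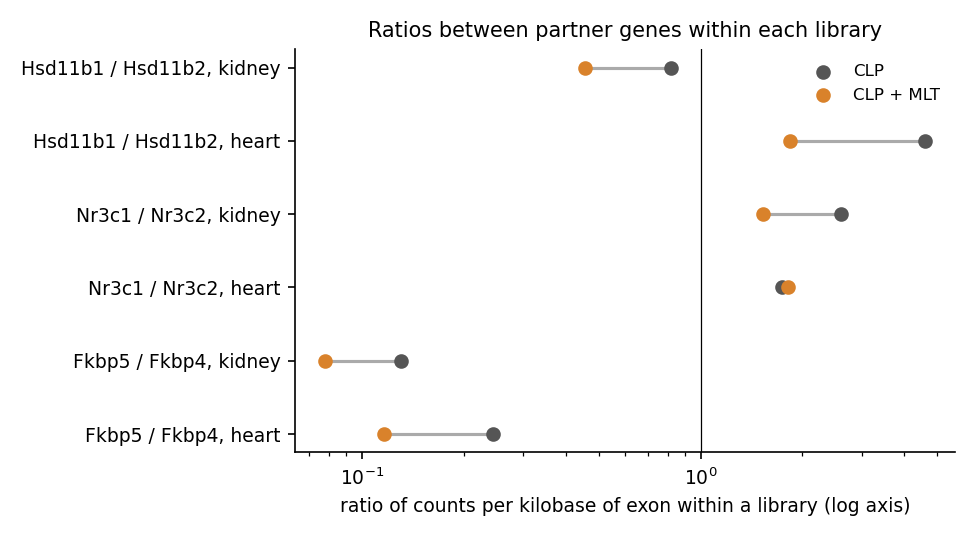
Ratio of counts per kilobase of exon between partner genes within each library (log axis), with the CLP and CLP + MLT libraries of a tissue joined by a line. In kidney the Hsd11b1 to Hsd11b2 ratio is 0.817 for CLP and 0.456 for CLP + MLT, and the Fkbp5 to Fkbp4 ratio is lower for CLP + MLT in both tissues.

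Hsd11b2 was higher past the thresholds in the CLP + MLT heart library, but on few reads, 26 counts against 66. The levels were 1.59 and 4.08 CPM, a log2 ratio of 1.34 (0.68 to 2.07). Of 12 kidney tubule markers 11 were tested in heart, 7 were higher past the thresholds and 0 were lower. By their ratios alone 9 were higher and 2 were lower, Slc5a2 (−0.36) and Calb1 (−0.22), and the summed level of the 12 was 132 CPM for CLP and 241 CPM for CLP + MLT. None of the 12 was at 0. Of all genes tested in heart, 7.15% were higher and 8.78% lower past the thresholds. Set against the kidney library of the same treatment, Hsd11b2 in heart stood at 1.02% of its kidney level for CLP and 1.97% for CLP + MLT. The median of the 12 markers was 1.40% and 2.71%. The part of kidney RNA in the heart value of Hsd11b2 was not tested. With a filter at a mean of 50 counts the gene is not tested in heart.

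**Figure D3:**
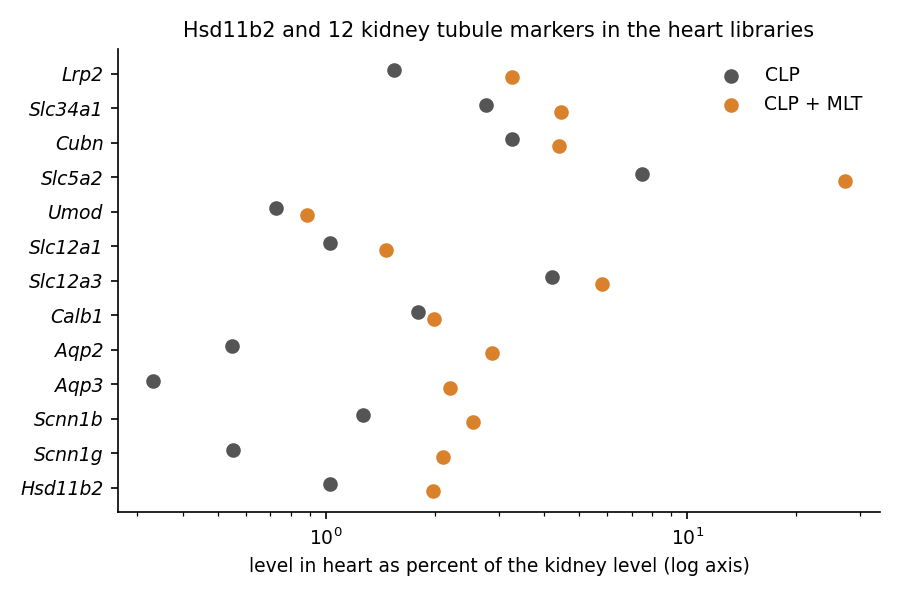
Level in each heart library as a percent of the level in the kidney library of the same treatment (log axis), for Hsd11b2 and 12 kidney tubule markers, 1 library per point. Every marker and Hsd11b2 have a higher percent in the CLP + MLT pair, which for Slc5a2 and Calb1 comes with lower levels in both tissues, with medians of the 12 markers at 1.40% for CLP and 2.71% for CLP + MLT; kidney and heart libraries were scaled separately.

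Fkbp5 encodes a partner of heat shock protein 90 that lowers the receptor's affinity for hormone, and its induction by the receptor is a feedback brake and a common readout of glucocorticoid action. In kidney, Fkbp5 (ENSMUSG00000024222.17, chromosome 17 from 28399094 to 28517527, minus strand) fell from 105 CPM (CLP) to 60.5 CPM (CLP + MLT), on 2583 and 932 counts. The kidney log2 ratio was −0.80 (−0.91 to −0.69), 1.74-fold lower. In heart it fell from 75.4 to 26.2 CPM, from 1230 and 424 counts, a log2 ratio of −1.53 (−1.69 to −1.37), 2.88-fold lower. Both intervals lie wholly beyond a 1.5-fold fall. Only 1.54% of the genes tested in heart and 7.33% of those in kidney had a lower log2 ratio than Fkbp5.

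Fkbp4, the related partner protein that favours transport of the receptor to the nucleus, had a log2 ratio of −0.05 (−0.11 to 0.01) in kidney and −0.46 (−0.57 to −0.34) in heart, and passed the thresholds in neither. Per kilobase, Fkbp5 stood at 0.131 times Fkbp4 in the CLP kidney and 0.0779 times in the CLP + MLT kidney, a log2 change of −0.75 (−0.87 to −0.62). In heart it stood at 0.244 and 0.116 times, a log2 change of −1.07 (−1.27 to −0.87). The lower Fkbp5 is therefore also seen within the libraries, without any scaling between them.

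**Figure D4:**
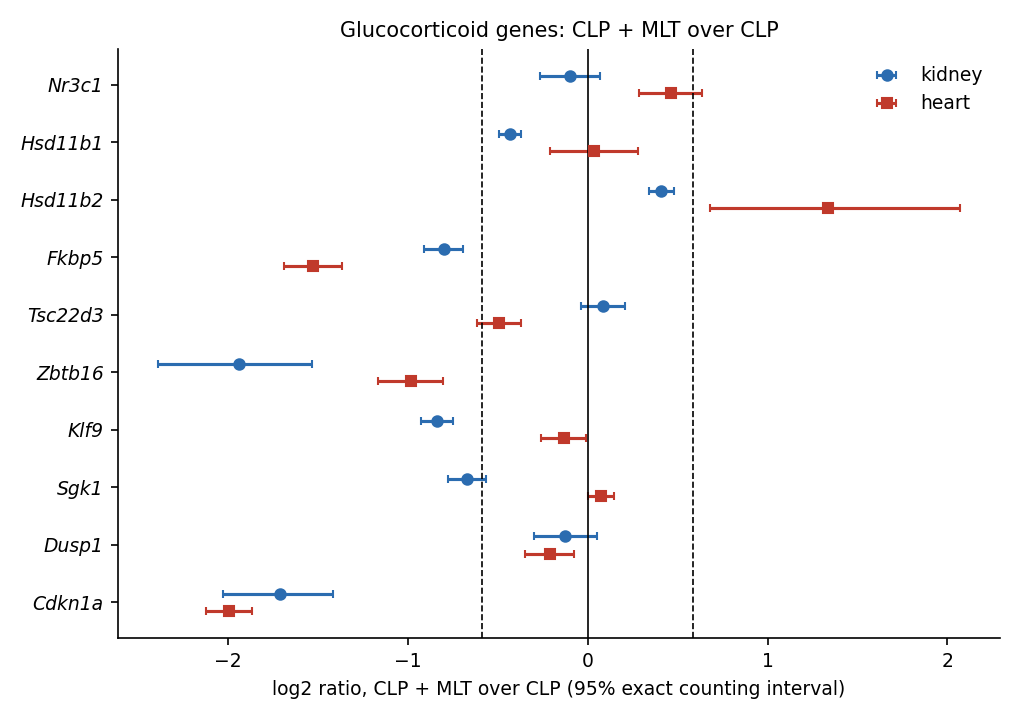
Log2 ratio of CLP + MLT over CLP for the 10 genes in kidney (circles) and heart (squares), with 95% exact counting intervals; dashed lines mark a fold of 1.5 in either direction. Cdkn1a, Zbtb16 and Fkbp5 lie left of the lower dashed line with their whole interval in both tissues, and Klf9 does so in kidney only.

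Zbtb16 encodes PLZF, a transcription repressor that is strongly induced by glucocorticoids in many cell types and also marks innate-like T cells. In kidney, Zbtb16 (ENSMUSG00000066687.5, chromosome 9 from 48654297 to 48836222, minus strand) fell from 13.8 to 3.57 CPM, on 338 counts and 55 counts. The kidney log2 ratio was −1.94 (−2.39 to −1.53), the largest fall of the 10 genes in that tissue. In heart, where its level was higher, it fell from 47.2 to 23.8 CPM, from 769 and 386 counts, a log2 ratio of −0.98 (−1.16 to −0.81). The lymphocyte markers Cd3e, Cd4, Cd8a, Nkg7 and Cd79a summed to 2.16 CPM for CLP and 1.36 CPM for CLP + MLT in kidney and to 1.17 and 0.741 CPM in heart. Only Cd8a passed the filter, in kidney, with 40 and 13 counts and a log2 ratio of −0.93 (−1.98 to −0.02) that was not past the thresholds. Cd79a was at 0 in both heart libraries. The part of lymphocytes in the values of Zbtb16 was not tested.

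Klf9 encodes a Krüppel-like repressor that is an early target of the receptor and also cycles with the circadian clock. In kidney, Klf9 (ENSMUSG00000033863.2, chromosome 19 from 23141226 to 23168134, plus strand) fell from 164 to 91.7 CPM, from 4020 and 1412 counts. The log2 ratio was −0.84 (−0.93 to −0.75), with the whole interval beyond a 1.5-fold fall. In heart it was at 68.0 CPM for CLP and 61.9 CPM for CLP + MLT, a log2 ratio of −0.13 (−0.26 to −0.01) that was short of the threshold.

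Tsc22d3 encodes GILZ, a leucine zipper protein that carries part of the anti-inflammatory action of glucocorticoids. In kidney, Tsc22d3 (ENSMUSG00000031431.13, chromosome X from 140539528 to 140600659, minus strand) was at 54.8 CPM for CLP and 58.1 CPM for CLP + MLT. The kidney log2 ratio of 0.09 (−0.04 to 0.21) showed no detectable difference, and scaling by library size only turned it to −0.11. In heart the gene was at 78.6 and 55.8 CPM, a log2 ratio of −0.49 (−0.62 to −0.37), 1.41-fold lower and short of the threshold. Tsc22d3 thus did not pass the thresholds in either tissue, where Fkbp5 and Zbtb16 passed in both.

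Sgk1 encodes a kinase that is induced by both steroid receptors and raises sodium uptake through the epithelial sodium channel. In kidney, Sgk1 (ENSMUSG00000019970.15, chromosome 10 from 21882184 to 21999903, plus strand) fell from 108 to 67.7 CPM, from 2642 and 1042 counts, a log2 ratio of −0.67 (−0.78 to −0.57). In heart it was at 186 and 196 CPM, from 3034 and 3172 counts, and the log2 ratio was 0.07 with an upper bound of 0.15. Sgk1, whose stretch above holds the full response element, thus fell in the CLP + MLT kidney and was short of the threshold in heart.

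Dusp1 encodes a phosphatase that switches off stress kinases and is induced by glucocorticoids as well as by the stress signals themselves. In kidney, Dusp1 (ENSMUSG00000024190.7, chromosome 17 from 26505590 to 26562128, minus strand) was at 30.3 and 27.8 CPM, a log2 ratio of −0.12 (−0.30 to 0.05). In heart it was at 59.1 and 51.1 CPM, a log2 ratio of −0.21 (−0.35 to −0.07). Both values were short of the threshold. It shares 11 exon bases with the opposite-strand gene Ergic1, and the kit does not mark strand.

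Cdkn1a encodes p21, an inhibitor of cyclin-dependent kinases that arrests the cell cycle and is induced by p53 as well as by glucocorticoids. In kidney, Cdkn1a (ENSMUSG00000023067.14, chromosome 17 from 29090976 to 29100727, plus strand) fell from 22.8 to 6.95 CPM, from 560 and 107 counts, a log2 ratio of −1.71 (−2.03 to −1.42). In heart it fell from 154 to 38.8 CPM, from 2516 and 628 counts, a log2 ratio of −1.99 (−2.12 to −1.87), 3.98-fold lower. Of all genes tested in heart, 0.649% had a lower log2 ratio. An antisense gene that shares 273 of its exon bases had at most 19 counts in any library.

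Fkbp5, Dusp1 and Cdkn1a lie within 2.60 Mb of each other on chromosome 17. Their log2 ratios were unlike in both tissues, since Dusp1 passed the thresholds in neither while Fkbp5 and Cdkn1a fell in both.

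Set side by side, 3 of the 10 genes were lower past the thresholds in both tissues, and 0 were higher in both. Of the 14592 genes tested in both tissues, 0.754% were lower in both and 1.21% were higher in both. Here too the choice of the 10 genes with earlier results known means that these shares do not test them. The log2 ratio in heart minus that in kidney was −0.73 (−0.92 to −0.53) for Fkbp5, the larger fall being in heart. For Zbtb16 it was 0.96 (0.51 to 1.44), the larger fall being in kidney. For Cdkn1a it was −0.28 (−0.61 to 0.06), with no detectable difference in size. For Klf9 it was 0.70 (0.55 to 0.86) and for Sgk1 0.74 (0.62 to 0.87), both lower in kidney. These intervals cover counting error only, and no difference between the tissues was tested against the spread between mice.

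Compared per kilobase of exon, the CLP kidney held most of Hsd11b2 (84.7 CPM per kilobase) and Hsd11b1 (69.1), followed by Klf9 (34.0) and Sgk1 (22.0), and least of Nr3c1 (4.32) and Zbtb16 (2.61). No neighbours in that order had overlapping counting intervals. In the CLP + MLT kidney the first 4 places were the same, and Sgk1 (13.8) and Tsc22d3 (13.4) could not be told apart. In the CLP heart the order was led by Cdkn1a (43.4) and Sgk1, and Hsd11b2 (0.867) was last. Tsc22d3 and Dusp1, Zbtb16 and Fkbp5, and Hsd11b1 and Nr3c1 were neighbours there whose intervals overlapped. In the CLP + MLT heart Sgk1 led and Cdkn1a (10.9) was in the fifth place. Fkbp5 (2.77) was next to last there, with an interval overlapping that of Hsd11b2 (2.22).

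Other genes of the pathway were counted in lists written from general knowledge, but with earlier results of these data known. Of all genes tested, 15.4% in kidney and 15.9% in heart were past the thresholds in either direction. The list of the receptor complex and its co-regulators, 22 genes with the heat shock protein 90 genes, their partners and the coactivators, had median log2 ratios of −0.08 (kidney) and 0.0048 (heart). Nr3c2 in kidney was the only member past the thresholds in either tissue. Hsp90aa1, for example, had log2 ratios of −0.40 in kidney and 0.39 in heart, and neither passed, though with library size only its kidney value was −0.59 and beyond the fold. The steroid supply list, of which 8 of 9 genes were tested, had 1 gene higher and 3 lower past the thresholds in kidney. Higher was Akr1c14, a steroid dehydrogenase gene, with 1.40 in kidney, and it was also higher in heart with 0.84. Lower in kidney were H6pd, Srd5a3 (−0.80) and the steroid 5-alpha reductase gene Srd5a1 (−0.61). Serpina6, which encodes the corticosterone-binding protein of plasma, did not pass the filter in either tissue.

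**Figure D5:**
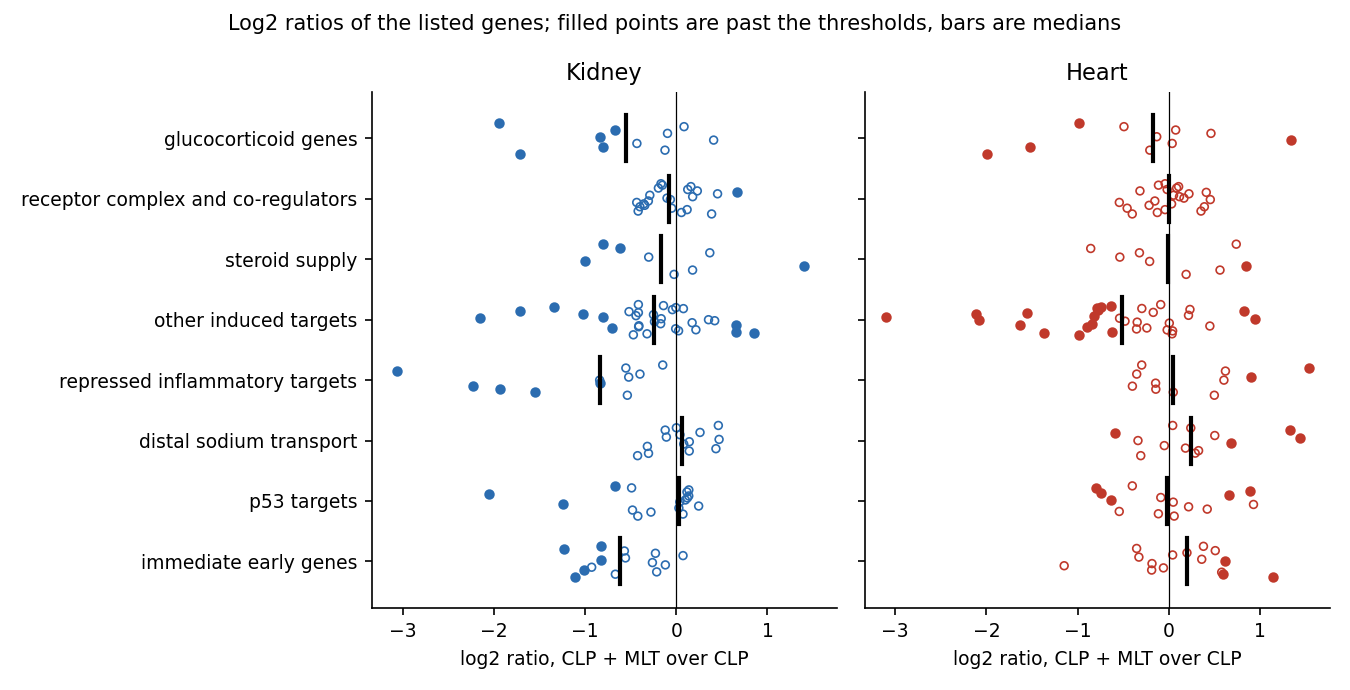
Log2 ratio of CLP + MLT over CLP for the tested genes of 8 lists in kidney (left) and heart (right); filled points are past the thresholds and black bars are list medians. The list of other induced targets has 15 genes lower past the thresholds in heart and 6 in kidney, and the receptor complex list has 1 gene past the thresholds in kidney and 0 in heart.

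Of 33 other genes known to be induced by glucocorticoids, 31 were tested in kidney, where 3 were higher and 6 lower past the thresholds, with a median of −0.24. In heart 32 were tested, 2 were higher and 15 were lower, with a median of −0.51. Beside these counts and those of the lists that follow, 15.4% of all genes tested in kidney and 15.9% in heart were called in either direction. Pdk4, which encodes a kinase that spares glucose, fell in kidney from 6729 to 1290 counts, a log2 ratio of −1.71, and was lower in heart with −0.78. Tgm2, which encodes tissue transglutaminase, was lower with −1.34 in kidney and −0.74 in heart. The metallothionein gene Mt2 was lower with −1.02 and −1.55, and Mt1 had −0.25 in kidney, short of the threshold, and −2.12 in heart. Lcn2, with −2.15 and −3.10, is also an acute phase and kidney injury gene. The muscle ubiquitin ligase genes Fbxo32 and Trim63 were lower in heart with −0.84 and −0.63. Of the 6 cardiomyocyte markers 2 were lower past the thresholds in the same library, Tnni3 with −1.27 among them, and the part of these markers was not tested.

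Members of that list also went opposite ways in the tissues, and the following were picked after their values were seen. Arrdc2, which encodes an arrestin domain protein, had 770 and 872 counts in kidney, a log2 ratio of 0.85, and 3927 and 1512 counts in heart, a log2 ratio of −1.37. Fam107a had 0.66 in kidney and −1.63 in heart, and the repressor gene Bcl6 0.66 and −0.62. All 3 were past the thresholds in both tissues. With scaling by library size only the kidney values of Fam107a and Bcl6, both 0.46, and the heart value of Bcl6, −0.57, were short of the fold, which leaves Arrdc2. Per1, a clock gene with a well known response element for the receptor, had −0.04 (−0.16 to 0.07) in kidney and 0.23 (0.14 to 0.32) in heart and passed in neither.

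Of 20 inflammatory genes that glucocorticoids are known to repress, 11 were tested in kidney, 5 were lower past the thresholds and 0 were higher, with a median of −0.84. The chemokine genes Cxcl10 (−1.94) and Cxcl1 (−1.55) and the adhesion gene Icam1 (−0.84) were among them. The kidney median was −0.67 with a prior count of 5 and −0.70 with no filter. In heart, of 11 tested, 2 were higher and 0 lower, with a median of 0.05 that turned to −0.05 with no filter and to −0.14 with a filter at a mean of 50 counts. Nos2, the inducible nitric oxide synthase gene, had 60 and 112 counts there, a log2 ratio of 0.90. Both induced and repressed targets were thus lower in the CLP + MLT kidney by their medians.

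Immediate early genes, which answer the same stress signals as Dusp1 and Sgk1, stood at a kidney median of −0.62, with 5 of 14 tested lower past the thresholds and 0 higher. Myc (−1.23), Atf3 (−1.11), Egr1 (−1.01) and Jun (−0.83) were among the lower ones. In heart the median was 0.20, with 3 of 15 higher and 0 lower, and Atf3 was higher there (1.15). Of 16 further p53 targets, which share their regulator with Cdkn1a, 16 were tested in kidney and 3 were lower past the thresholds, Pmaip1 (−2.05), Gdf15 (−1.25) and Zmat3 (−0.68). The median of the list was 0.03. In heart 14 were tested, 2 were higher and 3 were lower, with a median of −0.02. Higher were Tnfrsf10b (0.88) and Plk2 (0.66), and Trp53inp1 (−0.80) and Sesn2 (−0.74) were among the lower ones. Mdm2, a p53 target picked after its values were seen, had 0.04 in kidney and 0.05 in heart. The part of p53 in the values of Cdkn1a was not tested.

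Sodium transport genes of the distal nephron, which Sgk1 and the mineralocorticoid receptor govern, did not pass the thresholds in kidney for any of 14 members, with a median of 0.06 and a range from −0.42 to 0.47. In heart 3 of 13 tested were higher and 1 was lower, and the higher ones, Scnn1b, Tmprss2 (1.33) and Prss8 (0.68), are epithelial genes, and Scnn1b is also 1 of the 12 tubule markers.

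Clock genes differed between the same libraries. Genes on the side of Per, 10 in all, gave a kidney median of 0.40, and 5 of them were higher and 1 was lower past the thresholds, and a heart median of 0.78 with 6 higher and 0 lower. On the side of Bmal1, 5 genes, the kidney median was −0.88 with 2 genes lower and 1 higher, and the heart median −0.81 with 3 lower and 0 higher. Arntl, which encodes Bmal1, had −1.73 in kidney and −1.46 in heart. The higher gene in kidney was Cry1 (0.83, interval 0.49 to 1.18), which is counted on this side although its protein represses Bmal1. With a filter at a mean of 50 counts the kidney median of this side was −0.54. Corticosterone itself follows a daily rhythm, and no source used here gives the hour at which each tissue was taken. The part of the clock in the values of Klf9, Fkbp5 and the other response genes was not tested. A further list held 5 immune cell markers, Ptprc, Itgam, Adgre1, Cd68 and Ly6g, of which Ptprc is not particular to myeloid cells. Of these 4 were tested in each tissue, and Ly6g was at 0 in every library. In kidney Ptprc (0.95) and Itgam (0.80) were higher past the thresholds, while Adgre1 (0.69) and Cd68 (−0.49, interval −0.92 to −0.08) did not pass and lay on opposite sides of 0. Their summed level there was 22.4 CPM for CLP and 33.3 CPM for CLP + MLT. In heart the list median was 0.11 and Adgre1 (1.56) was the 1 marker past the thresholds, with Ptprc at 0.16, Itgam at 0.06 and Cd68 at −0.03 and sums of 42.6 and 57.4 CPM. Endothelial markers, 3 genes, had medians of −0.50 (kidney) and 0.14 (heart), and fibroblast markers, 4 genes, −0.35 and −0.42. The part of these cell types was not tested.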

How the data were processed

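Total RNA of kidney and heart was made into poly-A libraries with a kit that does not mark strand. The authors trimmed reads with trim-galore, aligned them to mm10 with HISAT2 2.1.0 and, per the labels, counted them with HTSeq. No source used here gives its version, settings or annotation. The deposited counts are whole reads per gene without normalization, and 5 closing totals that name no gene were left out (reads on no gene were 29.6% to 37.7% of each file). Libraries were scaled within each tissue with TMM (edgeR 4.0.16, R 4.3.3). DESeq2 1.42.0 gave the alternative size factors, and other values came from Python 3.11.15 with scipy 1.17.1. TMM factors were 1.07 and 0.935 in kidney and 0.981 and 1.02 in heart. A gene was kept in a tissue where its 2 libraries averaged 10 counts or more, and a prior count of 0.5 was added for log2 ratios. The methods name edgeR with a fold of 1.5 and p of 0.01 but no dispersion, so an exact binomial test on the reads was used. Intervals are 95%, exact, and cover counting error only, since each group has 1 library. They treat every read as independent, which PCR copies are not. Symbols matched 55141 of 55401 identifiers, and positions and exon lengths are from GENCODE M21 (GRCm38). The procedure was tested on simulated data that held counting error only, so that test says nothing about the spread between mice. The members and lists were chosen with earlier results of these data known. Named were the 10 genes, partner genes, cell markers and, per list and tissue, the 4 or fewer called genes that changed most and averaged 50 counts or more. Others, such as Hsp90aa1, Per1, Mdm2, Mt1, Fbxo32, Trim63 and Scnn1b, were chosen after their values were seen. Alternatives were other scalings, filters, a prior count of 5, a fold of 2, assumed variation between mice, and leaving out mitochondrial and haemoglobin genes.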

Additional observations from a re-analysis of the deposited data

Results flagged for a closer look

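For 4 of the 10 genes the 2 libraries of kidney and the 2 of heart differed in opposite directions, and these differences between the tissues were not tested. The log2 ratio in heart minus that in kidney was 0.74 for Sgk1, 0.56 for Nr3c1, 0.47 for Hsd11b1 and −0.58 for Tsc22d3. Sgk1 alone of these was past the thresholds in a tissue, being lower in the CLP + MLT kidney. In the other 3 genes the counting interval of 1 tissue spans 0: kidney for Nr3c1 (−0.26 to 0.07) and Tsc22d3 (−0.04 to 0.21), and heart for Hsd11b1 (−0.21 to 0.28).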

How the results depend on the processing

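The count of glucocorticoid genes past the thresholds, 5 in kidney and 4 in heart, depended on the spread assumed between mice. With edgeR's exact test at an assumed coefficient of variation of 0.2 it was 2 in kidney (Cdkn1a, Zbtb16) and 2 in heart (Cdkn1a, Fkbp5), and at 0.4 it was 0 in both. Over all genes, 2604 in kidney and 2528 in heart fell to 619 and 662 at 0.2 and to 90 and 63 at 0.4. A fold threshold of 2 left 2 of the genes in kidney (Cdkn1a, Zbtb16), with 1185 of all genes. In heart it left 3 (Cdkn1a and Fkbp5 lower, Hsd11b2 higher), with 1259 of all genes. Of the 3 genes lower in both tissues, Cdkn1a alone stayed so at that fold. The other alternatives gave 5 or 6 of the genes in kidney and 3 or 4 in heart. Scaling by library size only moved 8 of the 10 kidney log2 ratios outside their counting intervals, all downward with the median of all genes; the heart values stayed inside theirs under each scaling. None of the 10 genes that was past the thresholds changed sign under another scaling, the prior count of 5 or the removal of mitochondrial and haemoglobin genes. No paired analysis was possible because each group has 1 library. Hsd11b2 in heart rests on 26 and 66 counts.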
